A study of Mus musculus with 9 samples.

Results

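The granule protein genes of developing neutrophils are described here in fluorescently sorted mouse tumour cells. The members were the rows whose gene symbol was Ngp, Camp, Ltf, Lcn2, Elane, Mpo, Prtn3 or Ctsg, which gave 8 genes of the 23799 measured. RNA was sequenced in 9 libraries of 5 groups. The BC lung metastasis group (numbers 4 and 6) and the BC primary tumour group (numbers 1 and 5) held sorted GFP-positive breast cancer cells at 28 days, derived from 4T1-eGFP, a fluorescent derivative of a mouse mammary carcinoma line. The PDAC liver metastasis group (numbers 1 and 5), the PDAC lung metastasis (number 1) and the PDAC primary tumour group (numbers 1 and 5) held sorted YFP-positive cells of pancreatic ductal adenocarcinomas. All PDAC cells carried p48-Cre, p53F/+, KrasL/+ and ROSA-LSL-YFP. Number 1 also carried SIRT6F/F and was taken at 25.67 weeks, whereas number 5 lacked that allele and was taken at 28.95 weeks. SIRT6 genotype and age therefore cannot be told apart from the number. The p48 promoter drives Cre in the pancreas, so YFP marks cells of pancreatic origin. The BC tumours all derive from 1 cell line, the models are labelled orthotopic, and the metastases are described as matched to the primary tumours. Whether animals were pooled is not given in the sources used here.

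Neutrophils fill their granules in a fixed order as they mature in the bone marrow. Promyelocytes transcribe the genes of the primary granules: Elane (neutrophil elastase), Prtn3 (proteinase 3) and Ctsg (cathepsin G) are serine proteases, and Mpo (myeloperoxidase) makes hypochlorous acid. Myelocytes and metamyelocytes follow with the secondary granule genes: Camp encodes the antimicrobial cathelicidin, Ltf the iron-binding lactoferrin, Lcn2 the siderophore-binding lipocalin 2 and Ngp a cystatin-like granule protein. Mature neutrophils of the blood have largely stopped transcribing these genes and are instead rich in S100a8 and S100a9. Ltf and Lcn2 are also made by glandular epithelium, and Lcn2 is an acute-phase gene of the liver.

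The promoters of the members are shown because the genes of a class are switched on together. PU.1 (encoded by Spi1) and the C/EBP factors are known regulators of granulocyte genes. The 250 bases before each start site in RefSeq (GRCm38.p6, a later build than the mm9 that the submitters' notes name) were searched on both strands for the PU.1 core AGGAAGT and the C/EBP pattern TTNNGNAA. These motifs were chosen after the promoters had been read. All 8 members had 1 promoter window in the table. AGGAAGT was found in 4 of the 4 primary granule genes and in 0 of the 4 secondary ones, against 7.69% of 32851 windows. TTNNGNAA was found in 0 of the 4 primary and in 3 of the 4 secondary granule genes (Ngp, Ltf and Lcn2), against 36.9% of windows. No match overlapped another, and Camp had neither motif. The stretches below run 5′ to 3′ on the gene's strand, with the matches in capitals (AGGAAGT in the first 4, TTNNGNAA read on the opposite strand in Ngp, where 2 of its 3 matches are shown).
Elane, chr10:79886203-79886244, + strand: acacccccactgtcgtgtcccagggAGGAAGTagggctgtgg
Prtn3, chr10:79879548-79879589, + strand: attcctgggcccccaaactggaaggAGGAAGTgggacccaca
Mpo, chr11:87793536-87793577, + strand: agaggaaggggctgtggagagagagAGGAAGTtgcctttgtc
Ctsg, chr14:56102764-56102805, − strand: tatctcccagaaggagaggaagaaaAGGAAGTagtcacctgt
Ngp, chr9:110419660-110419723, + strand: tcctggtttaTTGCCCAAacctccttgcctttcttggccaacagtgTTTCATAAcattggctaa

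Prtn3 and Elane are direct neighbours in the RefSeq gene order on chromosome 10, on the same strand. Ngp, Camp and Ltf are all on chromosome 9, but none is next to another member. Lcn2 is on chromosome 2. Ctsg stands on chromosome 14 beside Mcpt8, a protease gene of basophils. A match of letters describes the sequence and does not show that a factor binds there.

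The libraries differed in ways that bear on these genes. The PDAC lung metastasis was the shallowest library (about 21300000 reads on genes, 9530 genes above 0), and BC primary 5 was the deepest (about 128000000 reads, 20478 genes). The fewest genes were listed in PDAC primary 5, BC lung metastasis 6 and the PDAC lung metastasis, so a gene listed at 0 there is given only as such. PDAC liver metastasis 5 stood apart for the granule genes, and the differences of members that rest on it are given with and without it. The tumour label was checked against 8 epithelial genes such as Krt8, Krt18 and Epcam, whose summed level ranged from 2226 to 16559 RPKM in 7 libraries. It was 255 RPKM in PDAC liver metastasis 5 and 132 RPKM in the lung metastasis of PDAC. RPKM is reads per kilobase of gene, scaled to the library, so levels of different genes can be compared. In bulk libraries, fewer cells of a type and less RNA per cell cannot be told apart.

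All 8 members had their highest value in PDAC liver metastasis 5. There the summed level of the 8 genes was 53588 RPKM, or 5.4% of the library's total, and in the other 8 libraries it made up 0.00925 to 0.146%. Of the 12832 genes that passed the filter on low values (at least 1 RPKM in at least 2 libraries), 12.7% had their highest value in that library. The lead of that library over the next one was 5.26-fold for Ltf and 401-fold for Camp, the smallest and the largest among the members. Among tested genes, 94 (0.733%) were led by that library by at least as much as Ltf. Of the members, 7 were tested and Ctsg was not, because only 1 library reached 1 RPKM.

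**Figure D1:**
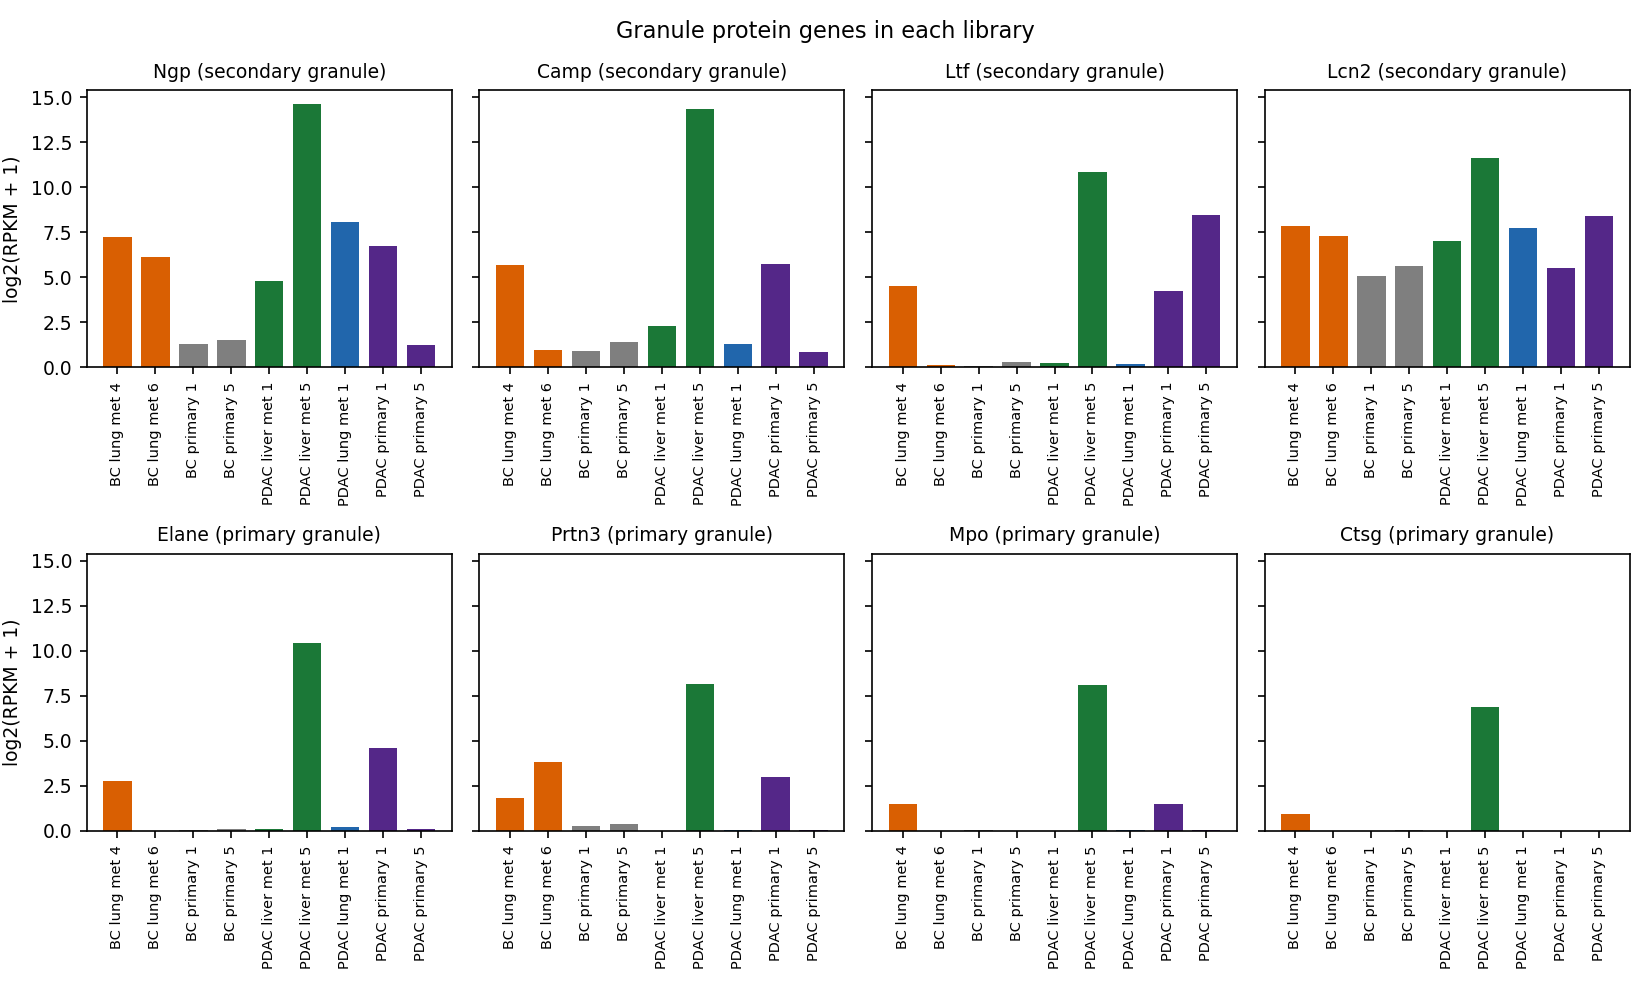
Each bar is 1 library, and its height is log2(RPKM + 1) of the gene named above the panel, with metastases left of the primary tumours of the same model and 1 colour per group. The tallest bar in all 8 panels is PDAC liver metastasis 5, from 14.6 for Ngp to 6.85 for Ctsg.

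Among the secondary granule genes, Ngp (ENSMUSG00000032484) reached the highest level and was above 1 RPKM in all 9 libraries. It was at 150 and 69.7 RPKM in lung metastases 4 and 6 of the BC model, against 1.42 and 1.87 RPKM in BC primaries 1 and 5. Among the PDAC libraries it was at 26.2 and 25527 RPKM in liver metastases 1 and 5 and at 267 RPKM in the lung metastasis, against 104 and 1.31 RPKM in primaries 1 and 5. The BC groups did not overlap. The PDAC liver group spanned the primary values, and the lung metastasis lay above both. Ngp held rank 7 of the 18717 genes above 0 in PDAC liver metastasis 5 and rank 269 of 9530 in the PDAC lung metastasis.

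Camp (ENSMUSG00000038357) was close to Ngp in PDAC liver metastasis 5 but far below it in some of the other metastases. It was at 50.9 and 0.926 RPKM in lung metastases 4 and 6 of the BC model, against 0.853 and 1.61 RPKM in BC primaries 1 and 5. The PDAC model had it at 3.85 and 20982 RPKM in liver metastases 1 and 5 and at 1.43 RPKM in the lung metastasis, against 52.4 and 0.797 RPKM in primaries 1 and 5. Both the BC and the PDAC groups overlapped. The ratio of Ngp to Camp was 1.22 in PDAC liver metastasis 5, 1.16 to 1.99 in the 4 primary tumours, and 2.95 in BC lung metastasis 4. It was 6.79 in PDAC liver metastasis 1, 75.3 in BC lung metastasis 6 and 186 in the PDAC lung metastasis. Ngp thus stood furthest above Camp in the last 3 libraries.

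Ltf (ENSMUSG00000032496) was high in 1 library that had hardly any of the other members except Lcn2. It was at 21.5 and 0.0703 RPKM in lung metastases 4 and 6 of the BC model, against 0.0652 and 0.203 RPKM in BC primaries 1 and 5. In PDAC it was at 0.169 and 1854 RPKM in liver metastases 1 and 5 and at 0.114 RPKM in the lung metastasis, against 17.5 and 352 RPKM in primaries 1 and 5. In PDAC primary 5 the Ltf level was 442 times that of Camp, compared with 0.0438 to 0.422 times in the other 8 libraries. That library also had the highest summed level of the 8 epithelial genes, 16559 RPKM, and an S100a8 level of 9.28 RPKM. A list of 13 granule protein genes outside the members was read as well. In PDAC primary 5 only 4 of them reached 1 RPKM, compared with 11 in PDAC primary 1. The list had medians of 0.0235 and 15.3 RPKM and sums of 4419 and 5106 RPKM, in that order. The 4 genes of PDAC primary 5 were Cyba, Chil3, Pglyrp1 and Lyz2, at 1581, 1243, 1096 and 498 RPKM. Every other gene of the list was at or below 0.0989 RPKM (Cybb) there, with 4 listed at 0. The part of epithelial cells in the Ltf value was not tested.

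Lcn2 (ENSMUSG00000026822) was above 30 RPKM in every library, which no other member was. It was at 228 and 155 RPKM in lung metastases 4 and 6 of the BC model, against 32.3 and 47.5 RPKM in BC primaries 1 and 5. Among the PDAC libraries it was at 128 and 3182 RPKM in liver metastases 1 and 5 and at 214 RPKM in the lung metastasis, against 44.6 and 340 RPKM in primaries 1 and 5. The BC groups did not overlap and the PDAC groups did. In PDAC liver metastasis 5 Lcn2 was at 0.125 times the level of Ngp. In both BC primaries it was at 22.7 and 25.4 times the level of Ngp, and in PDAC primary 5 at 259 times.

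The primary granule genes were near 0 in most libraries. Elane (ENSMUSG00000020125) was at 5.89 RPKM in BC lung metastasis 4 and listed at 0 in number 6, against 0.0389 and 0.0829 RPKM in BC primaries 1 and 5. The PDAC model had it at 0.0629 and 1381 RPKM in liver metastases 1 and 5 and at 0.17 RPKM in the lung metastasis, against 23.5 and 0.0694 RPKM in primaries 1 and 5. PDAC liver metastasis 5, PDAC primary 1 and BC lung metastasis 4 were thus the libraries with Elane above 1 RPKM, and the groups overlapped. The value in PDAC liver metastasis 1 corresponds to about 1 read and that in the PDAC lung metastasis to about 2 reads.

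Mpo (ENSMUSG00000009350) was above 1 RPKM in the same 3 libraries. It was at 1.80 RPKM in BC lung metastasis 4 and listed at 0 in number 6, against 0.0139 and 0.00223 RPKM in BC primaries 1 and 5. In PDAC it was listed at 0 in liver metastasis 1, at 268 RPKM in liver metastasis 5 and at 0.0229 RPKM in the lung metastasis, against 1.77 and 0.0187 RPKM in primaries 1 and 5. Ctsg (ENSMUSG00000040314) was at 0.91 RPKM in BC lung metastasis 4 and 114 RPKM in PDAC liver metastasis 5. BC primary 5 had 0.0305 RPKM, and the remaining 6 libraries, PDAC primary 1 among them, listed the gene at 0.

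Prtn3 (ENSMUSG00000057729) departed from this in BC lung metastasis 6. It was at 2.56 and 13.1 RPKM in lung metastases 4 and 6 of the BC model, against 0.193 and 0.282 RPKM in BC primaries 1 and 5. Among the PDAC libraries it was listed at 0 in liver metastasis 1, at 281 RPKM in liver metastasis 5 and at 0.0452 RPKM in the lung metastasis, against 7.00 and 0.0184 RPKM in primaries 1 and 5. The value in BC lung metastasis 6 corresponds to about 1056 reads, and Elane, its neighbour on the chromosome, was listed at 0 in the same library, as were Mpo and Ctsg. That library is among the 3 with the fewest genes above 0.

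**Figure D2:**
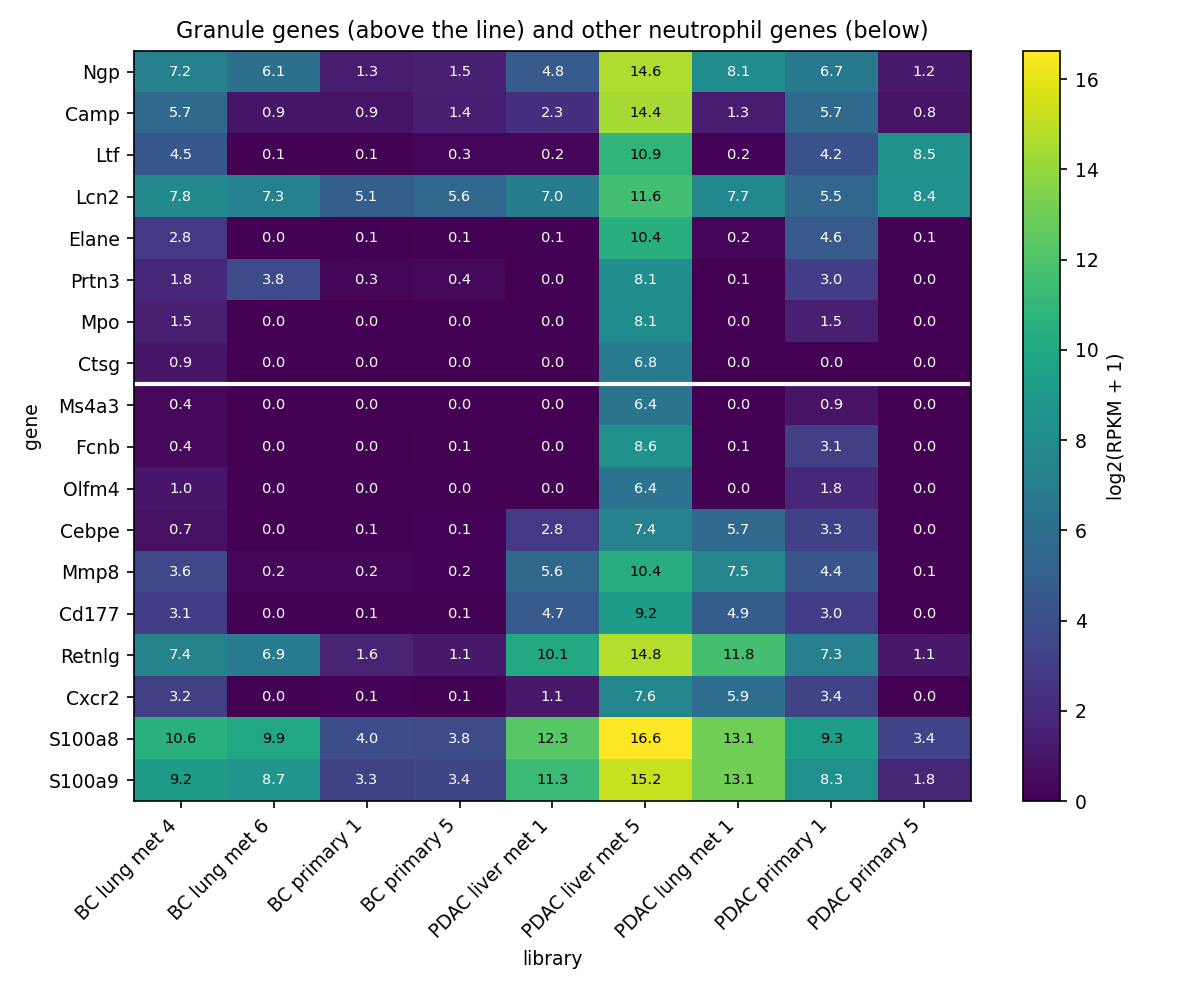
Rows are the 8 granule genes (above the white line) and 10 other neutrophil genes (below), columns are the 9 libraries, and colour and printed number are log2(RPKM + 1). The column of PDAC liver metastasis 5 is filled in every row, whereas PDAC liver metastasis 1 and the PDAC lung metastasis are high for S100a8, S100a9 and Retnlg and near 0 for the primary granule genes.

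The granule genes were next set against S100a8, the calcium-binding protein gene of mature neutrophils, within each library. The 4 primary granule genes summed to 2.02% of the S100a8 level in PDAC liver metastasis 5, 5.30% in PDAC primary 1 and 0.743% in BC lung metastasis 4. They summed to 0.00125% in PDAC liver metastasis 1 and 0.0028% in the PDAC lung metastasis, although S100a8 was at 5035 and 8507 RPKM in these libraries. Their sums there rested on about 1 and 4 reads. Ngp, Camp and Ltf together reached 47.7% of the S100a8 level in PDAC liver metastasis 5 and 28.6% in primary tumour 1 of PDAC, compared with 0.599% in PDAC liver metastasis 1 and 3.15% in the PDAC lung metastasis. The 2 libraries with S100a8 at these levels thus had lower ratios, for both classes, than the other 7. These ratios are descriptions of single libraries and were not tested.

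**Figure D3:**
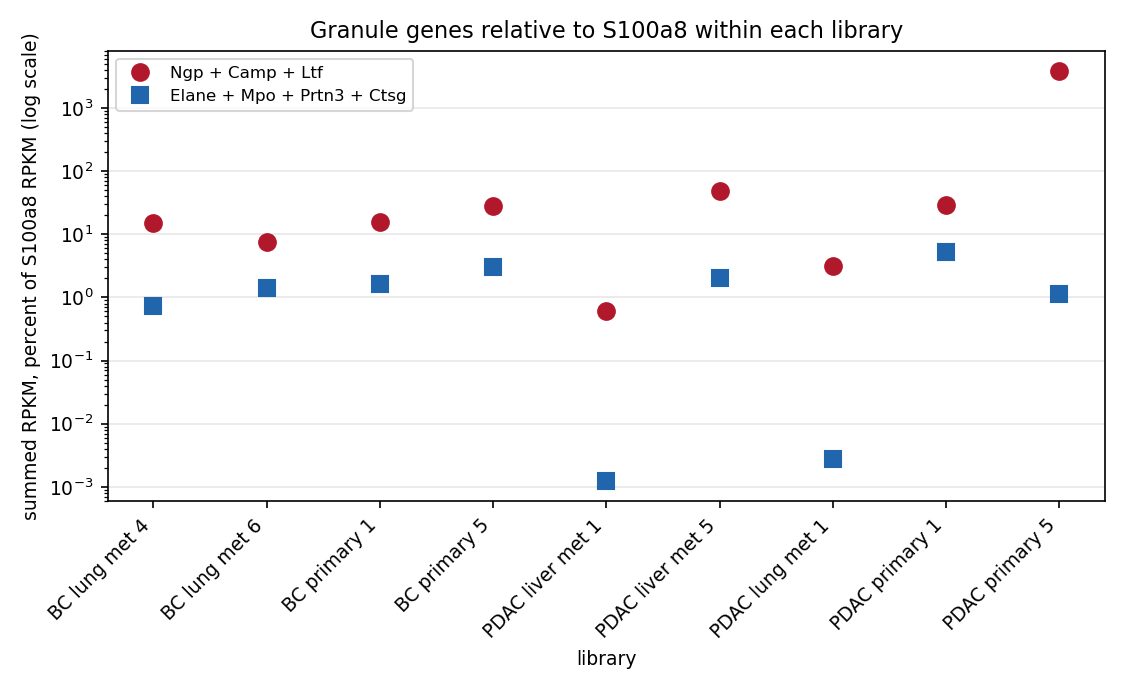
Points give the summed RPKM of Ngp, Camp and Ltf (circles) and of Elane, Mpo, Prtn3 and Ctsg (squares) as a percentage of the S100a8 RPKM of the same library, on a log scale. The squares of PDAC liver metastasis 1 (0.00125%) and the PDAC lung metastasis (0.0028%) lie below those of the other 7 libraries, and the circle of PDAC primary 5 (3817%) lies above all others.

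The remaining genes of the pathway came from lists chosen with earlier results of these data known. Among the other granule genes, the promyelocyte genes Ms4a3 and Fcnb and the secondary granule gene Olfm4 followed the primary granule members. Fcnb, which encodes ficolin B, was at 378 RPKM in PDAC liver metastasis 5, 7.82 RPKM in primary tumour 1 of PDAC and at most 0.282 RPKM in the other libraries. Ms4a3 was at 84.1 RPKM in PDAC liver metastasis 5 and at most 0.857 RPKM elsewhere. Olfm4, encoding olfactomedin 4, was at 81.2 RPKM in PDAC liver metastasis 5 and at most 2.56 RPKM elsewhere. Mmp8, the gene of neutrophil collagenase, was more widespread. It was at 47.7 and 1320 RPKM in PDAC liver metastases 1 and 5 and at 185 RPKM in the lung metastasis of PDAC. PDAC primaries 1 and 5 had 20.4 and 0.039 RPKM. Other genes of this list did not follow the primary granule members. Lyz2 was highest in the PDAC lung metastasis (7064 RPKM, against 4309 RPKM in PDAC liver metastasis 5). Pglyrp1 and Chil3 were highest in PDAC liver metastasis 5 but were at 1096 and 1243 RPKM in PDAC primary 5. Cyba was at 233 RPKM or more in every library. Bpi was at only 0.114 RPKM in PDAC liver metastasis 5.

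Of 11 transcription factors and receptors of granulocyte development, 5 were highest in PDAC liver metastasis 5 (Cebpd, Cebpe, Gfi1, Spi1 and Myb). The share among all tested genes was 12.7%. Cebpa, Cebpb, Cd34 and Flt3 were highest in the PDAC lung metastasis. The progenitor receptor genes Cd34 and Flt3 were at 24.1 and 6.24 RPKM there, against 6.78 and 2.13 RPKM in PDAC liver metastasis 5. Kit was highest in PDAC liver metastasis 1 (1.40 RPKM) and Runx1 in PDAC primary 5 (19.1 RPKM). Cebpe, the C/EBP factor needed for secondary granules, was at 5.98 and 166 RPKM in PDAC liver metastases 1 and 5 and at 51.3 RPKM in the lung metastasis of PDAC, against 8.6 and 0.0258 RPKM in PDAC primaries 1 and 5. Gfi1, a repressor active in granulocyte progenitors, reached 5.78 RPKM in PDAC liver metastasis 5 and at most 0.0477 RPKM in any other library. Spi1 was at 185 and 729 RPKM in PDAC liver metastases 1 and 5 and at 502 RPKM in the lung metastasis of PDAC, against 114 and 0.0711 RPKM in PDAC primaries 1 and 5. Spi1 was thus abundant in both PDAC metastases that had almost no primary granule transcripts. Which cells the Spi1 reads came from, and whether Spi1 bears on the primary granule genes here, was not tested.

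The first comparison asked whether the granule genes differ between lung metastases and primary tumours of the BC model. All 7 tested members had a positive log2 difference, with a median of 2.18, whereas the median over all 12832 genes was -0.29 and 35.6% of genes were above 0. None was called at an adjusted p under 0.05 by limma, where 0% of genes were called, and 0 had an unadjusted p under 0.05, against 2.07% of genes. Ngp differed by 5.29 ± 2.60 on the log2(RPKM + 1) scale (SE, n = 2 against 2; limma adjusted p = 0.974), Prtn3 by 2.52 ± 2.18 and Lcn2 by 2.23 ± 1.34. For these 3 genes the metastases did not overlap with the primaries, which held in the same direction for 15.8% of tested genes (27% in the opposite direction). The standard errors take their spread from all 9 libraries, including the PDAC liver group. When only the 4 BC libraries were fitted, 4 members passed the filter (Ngp, Camp, Lcn2 and Prtn3), and Ngp alone of these was called (limma adjusted p = 5.8e-10; 5.8e-10 to 1 over its alternatives), as were 0.703% of the 10384 genes in that fit. The SE of Ngp in that fit was 0.72, against 2.60 with all 9 libraries. The moderation there took its spread almost wholly from all genes of the fit, not from the 4 values of Ngp. Its small p-value therefore says little of how Ngp varies between tumours. Without BC lung metastasis 4, the differences of Camp (-0.19), Ltf (-0.081), Elane (-0.085) and Mpo (-0.012) were below 0.

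In the same comparison the mature neutrophil list had 13 of 15 tested genes with positive differences (median 1.63) and 4 at an unadjusted p under 0.05 by limma. The summed level of its 15 genes was 2461 and 1591 RPKM in lung metastases 4 and 6 of the BC model, against 43.4 and 41.3 RPKM in BC primaries 1 and 5, and in metastasis 6 it had 4 genes at 0, Ly6g, Fpr2, Clec4d and Cxcr4. The other granule genes had 8 of 11 positive (median 0.5) and the granulopoiesis factors 2 of 9 (median -0.49), with 0 and 0 at an unadjusted p under 0.05. None of the 3 lists had a gene called. The part of neutrophils among the sorted cells in these differences was not tested.

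Liver metastases of the PDAC model were compared with its primary tumours in the same fit. The members depended on which liver metastasis was read. Of 7 tested members 6 had a positive difference, with a median of 2.90 against 0.08 over all genes, of which 53.9% were above 0. None was called by limma, where 0.00779% of genes were, and 0 had an unadjusted p under 0.05, against 6.4% of genes. Ngp differed by 5.74 ± 2.60 (SE, n = 2 against 2; limma adjusted p = 0.786), Camp by 5.03 ± 3.22, Mpo by 3.29 ± 2.00 and Elane by 2.90 ± 2.75. Prtn3 differed by 2.56 ± 2.18, Lcn2 by 2.36 ± 1.34 and Ltf by -0.80 ± 2.90. In no tested member did the 2 groups separate, which 15.4% of genes did upwards and 10.2% downwards. Within numbers, Lcn2 was the 1 tested member higher in the liver metastasis for both, as were 23.9% of genes. With the number as a block its difference of 2.36 had an SE of 0.65, with an unadjusted p of 0.00688 and an adjusted p of 0.369 by limma. It was then the 1 of 7 members at an unadjusted p under 0.05, against 8% of genes, and none was called.

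Without PDAC liver metastasis 5, the difference of Ngp was 0.80 and that of Lcn2 0.04. Those of Camp (-1.01), Elane (-2.27), Mpo (-0.75) and Prtn3 (-1.51) were then below 0, and that of Ltf was -6.11, the 1 member at an unadjusted p under 0.05 by limma (6.07% of genes). Without PDAC liver metastasis 1, the differences were 10.68 for Ngp, 11.07 for Camp, 4.67 for Lcn2, 8.08 for Elane, 7.32 for Mpo and 6.62 for Prtn3. These 6 members then had an unadjusted p under 0.05 by limma, against 6.43% of genes, and none was called. The difference of Ltf was then 4.52, and without PDAC primary 5 it was 1.33. The mature neutrophil list had 14 of 15 positive differences (median 5.23) with 12 at an unadjusted p under 0.05 by limma. The other granule genes had 11 of 11 positive (median 2.28, 4 at an unadjusted p under 0.05) and the granulopoiesis factors 8 of 9 (median 2.01, 2 of them). None of the 3 lists had a called gene. Without PDAC liver metastasis 5, positive differences were seen in 13 of 15 (median 4.45), 7 of 8 (median 1.92) and 5 of 7 (median 1.15) tested genes of the 3 lists, in that order. The summed level of the mature neutrophil list was 11686 and 175393 RPKM in liver metastases 1 and 5, against 1703 and 123 RPKM in primaries 1 and 5. Its part in the granule gene values was not tested.

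The single PDAC lung metastasis has no replicate, and limma assumed it to vary like the other groups. Of 7 tested members 2, Ngp and Lcn2, had a positive difference from the PDAC primaries, and the median was -1.45 against -0.50 over all genes, of which 33.7% were above 0. None was called by limma, where 0.584% of genes were, and 0 had an unadjusted p under 0.05, against 13.8% of genes. Ngp differed by 4.10 ± 3.18 (SE, n = 1 against 2; limma adjusted p = 0.637) and lay above both primaries, as did 23.9% of genes. Ltf differed by -6.18 ± 3.55 (adjusted p = 0.502 by limma) and lay below both, as did 34.4% of genes. Camp (-2.01), Elane (-2.13), Prtn3 (-1.45) and Mpo (-0.72) lay between the primaries. Elane, Prtn3 and Mpo rested on about 2, 1 and 1 reads in the lung metastasis and about 2, 1 and 2 in PDAC primary 5. Their order relative to that primary therefore cannot be told. With the number as a block, the difference of Lcn2 was 2.67 ± 0.85 (unadjusted p = 0.0148 and adjusted p = 0.292 by limma), the 1 of 7 members at an unadjusted p under 0.05, against 11.7% of genes. Without PDAC primary 1 the differences were 0.44 for Camp, 0.13 for Elane, 0.037 for Prtn3 and 0.0060 for Mpo, and -0.67 for Lcn2. Mature neutrophil genes were positive in 13 of 15 (median 5.08), other granule genes in 8 of 11 (median 0.97) and granulopoiesis factors in 7 of 9 (median 3.30), none of them called.

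**Figure D4:**
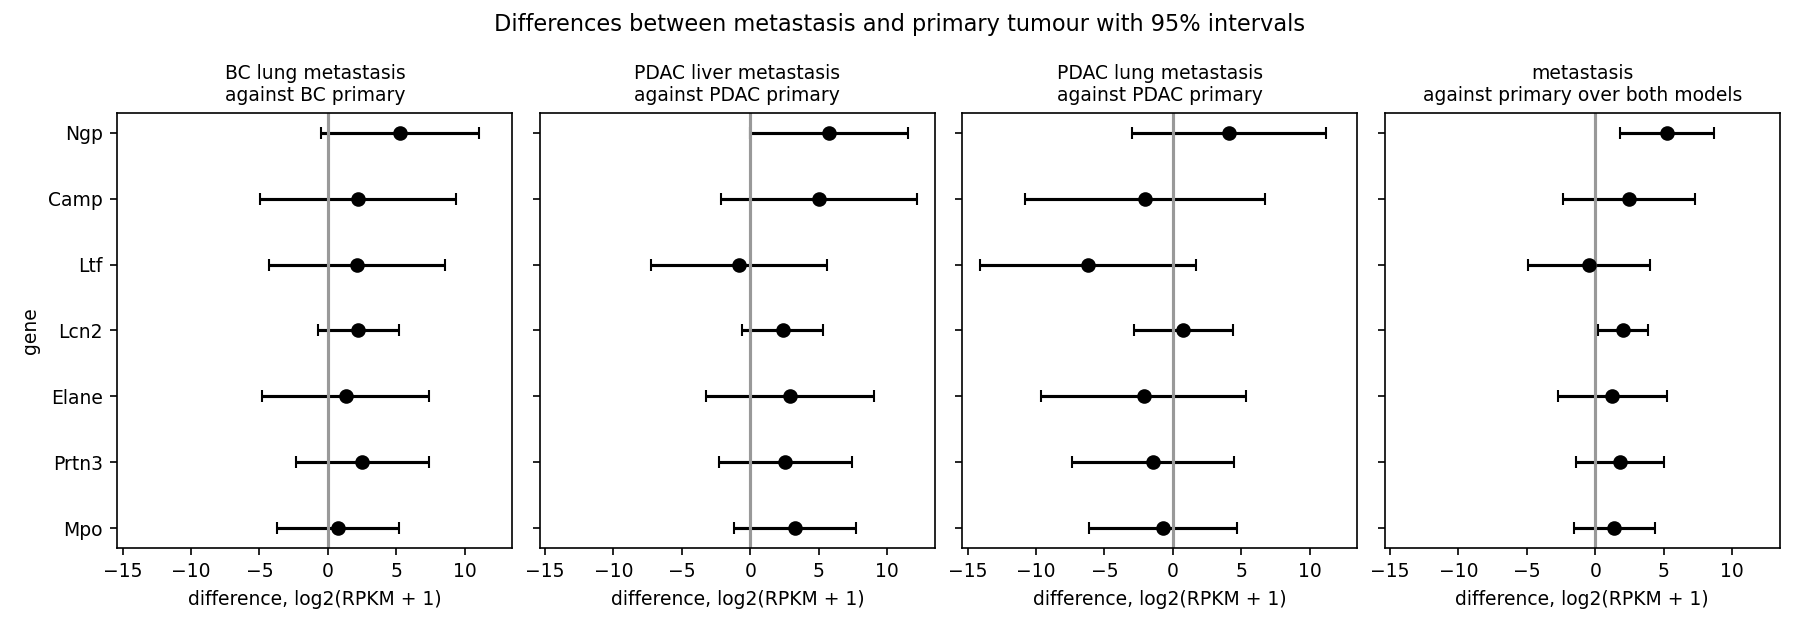
Points are differences in mean log2(RPKM + 1) between metastasis and primary tumour for the 7 tested members, with 95% intervals from limma. The intervals of Ngp and Lcn2 over both models (right panel) exclude 0 before adjustment, and all 21 intervals of the 3 single comparisons include it.

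Metastases of both models together (5 libraries) were compared with the 4 primary tumours, with the model as a covariate. Ngp was higher by 5.24 ± 1.60 (SE; 95% interval 1.79 to 8.69), with an unadjusted p of 0.00598 and an adjusted p of 0.853 by limma. Lcn2 was higher by 2.02 ± 0.85 (0.17 to 3.86), with an unadjusted p of 0.0346 and an adjusted p of 0.853 by limma. Neither passed the threshold, and these were 2 of 7 tested members at an unadjusted p under 0.05, against 4.89% of genes. No member was called, and 0.00779% of genes were. Differences were above 0 for 6 of 7 members and for 40.9% of genes. No member separated the metastases from the primaries, as 0.366% of genes did upwards and 0.538% downwards. Ngp was below PDAC primary 1 in 2 of the 5 metastases, BC lung metastasis 6 and PDAC liver metastasis 1. With the number of the PDAC libraries as a block, the difference of Lcn2 was 2.35 ± 0.43 (unadjusted p = 0.000194 and adjusted p = 0.311 by limma), and again Ngp and Lcn2 were the 2 members at an unadjusted p under 0.05, against 4.35% of genes. Without PDAC liver metastasis 5 the difference of Ngp was 3.87 and that of Lcn2 1.32.

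The other 5 tested members differed by -0.45 to 2.46 over both models, and none reached an unadjusted p under 0.05. Without PDAC liver metastasis 5, the difference of Elane was -0.45. The metastasis effect of the PDAC liver group minus that of the BC lung group ranged from -2.91 for Ltf to 2.84 for Camp. It was above 0 for 6 of 7 members and 62.6% of genes, and below 0 for all 7 members without PDAC liver metastasis 5. Limma called 0 members and 0% of genes in that test of the difference, and 0 members had an unadjusted p under 0.05, against 4.13% of genes. For Ngp the difference between the models was 0.45, with a 95% interval of -7.73 to 8.62, wide enough to hold large differences in either direction.

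Genes most like the members in their pattern were sought among 10920 genes with at least 5 RPKM in 1 or more libraries. These correlations of log2(RPKM + 1) over the 9 libraries are descriptions, since the points share a depth and a library each and PDAC liver metastasis 5 carries the highest value in most of them. For the mean of the 4 primary granule genes the leading genes were Olfm4 (r = 0.993), Mmp25 (0.993), Rpl10-ps2 (0.990), Tmem156 (0.989) and Ppp1r3b (0.986), and without PDAC liver metastasis 5 these 5 had r from 0.867 to 0.938. Mmp25 encodes a membrane-bound metalloproteinase of neutrophils, and Rpl10-ps2 is a pseudogene whose reads may come from Rpl10. For the mean of Ngp, Camp and Ltf they were Mmp25 (0.965), Elane (0.963), Ggt1 (0.961), Tmem156 (0.960) and Fut7 (0.960), the last a fucosyltransferase gene for selectin ligands of leukocytes, and without that library r was 0.787 to 0.825. For Lcn2 they were Anxa1 (0.924), Dph3 (0.864), Ube2b (0.839), Glrx (0.839) and Gm12839 (0.838), and without that library r was 0.428 to 0.783. Anxa1, the gene of annexin A1, was at 466 and 3688 RPKM in PDAC liver metastases 1 and 5, against 138 and 599 RPKM in PDAC primaries 1 and 5.

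Among the members themselves, Camp, Elane and Mpo still had high r when PDAC liver metastasis 5 was left out. Camp and Elane had r = 0.987 over 9 libraries and 0.939 over the other 8, and Camp and Mpo had 0.974 over both. The values over 8 libraries rest mainly on BC lung metastasis 4 and PDAC primary 1. Elane was at 5.89 and 23.5 RPKM and Mpo at 1.80 and 1.77 RPKM there. In the remaining libraries they were at most 0.17 and 0.0229 RPKM. Ngp and Camp had 0.849 over 9 libraries and 0.543 over 8. Ltf and Camp had 0.730 and 0.329, and Lcn2 and Camp had 0.706 and -0.0716. Prtn3 and Elane, the chromosome 10 neighbours, had 0.883 and 0.524.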

How the data were processed

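The authors deposited 1 table of 23799 genes in 9 columns, whose name says CPM. Its columns sum to 288171 to 992077, and low values (under 20 reads) multiplied by GENCODE M21 exonic gene length were whole multiples of 1 step per library, within 0.02, for 62.5 to 74.2% of values, against 3.66 to 15.8% without length. The deposited values were therefore read as RPKM, and reads were estimated with these lengths, found for 93% of genes. The submitters' processing notes name mm9 as the genome build. The aligner and the counting program are not given in the sources used here. Libraries were made with the SMART-seq v4 kit, which does not mark strand, per the labels' protocols. No 2 libraries held identical values, and nothing in the labels says that BC libraries of a group came from separate animals, so the p-values speak only of the variation among these libraries, which may be technical.

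Differences were tested with limma 3.58.1 in R 4.3.3 on log2(RPKM + 1) using trended, robust moderation of variances, for 12832 genes at or above 1 RPKM in 2 or more libraries. Fold changes on this scale understate those of low genes. A single model held all 9 libraries and 5 group means (4 residual degrees of freedom), and the comparison over both models had the model as covariate (6). Two-sided p-values were adjusted by the Benjamini-Hochberg method across these genes, at a threshold of 0.05. Equal numbers in PDAC go with equal age and genotype, and the metastases are described as matched. The main fit held no term for this pairing. It entered through the replicate block and through the reading within numbers. The deviations of PDAC primary 1 and liver metastasis 1 had a correlation of -0.165. The text names the 8 members, genes of 12 lists and the 5 genes most correlated with each class. Of the list genes, 5 were matched by Ensembl identifier. Members, lists and motifs were chosen with earlier results of these data known. Alternatives were other pseudocounts, filters, scalings and fits, a replicate block, and leaving out each library.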

Additional observations from a re-analysis of the deposited data

How the results depend on the processing

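Of 636 alternative values for single members, 578 kept the direction and the side of the threshold, 56 changed sign and 2 were called, both for Ngp. Fitting only the BC libraries called 73 genes and 1 member, Ngp, in the BC comparison. The PDAC liver comparison called 1 gene as fitted, 0 under a pseudocount of 0.1, no filter, a common sum (with or without haemoglobin), quantile normalization, only the PDAC libraries or the replicate block, 2 under a pseudocount of 5, and 0 to 1032 when 1 library was left out, 1032 without PDAC primary 1. The PDAC lung comparison called 75 genes as fitted, 270 under a pseudocount of 0.1, 117 under 5, 251 without a filter, 135 with a common sum, 161 with quantile normalization, 1 with only the PDAC libraries, 0 with the replicate block, and 0 to 1547 when 1 library was left out, 1547 without PDAC primary 1 and 0 without BC lung metastasis 4 or either BC primary. The comparison over both models called 1 gene as fitted, 0 under a pseudocount of 0.1, no filter, either common sum or the replicate block, 3 with a filter of 5 RPKM, 6 with quantile normalization, and 0 to 10 when 1 library was left out, 10 without PDAC primary 1. The test between the models called 0 to 30 genes when 1 library was left out, 30 without PDAC primary 1. No member was among the genes called under these alternatives other than Ngp.

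As the deviations of PDAC primary 1 and liver metastasis 1, which share a number, were negatively correlated, a crossed pairing was added after the data were seen: it called 46 genes for PDAC liver, and 6 genes with 1 member, Ngp (limma adjusted p = 0.0338; 0.0338 to 1.00 over its alternatives), over both models. Leaving out the 3 libraries with the fewest genes, also added, called 0 genes for PDAC liver and over both models, and the PDAC lung comparison could not then be made.

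The sign of Ltf in the PDAC liver comparison changed with a pseudocount of 5 (0.13) and without the 3 libraries (1.33). Over both models it changed with quantile normalization (0.14), the replicate block (0.29) and without the 3 libraries (2.82). In the PDAC lung comparison Lcn2 changed with a common sum (-0.054) and Mpo with quantile normalization (0.15) and the replicate block (0.94). The block changed no other sign or call of a member.

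In the test between the models, Prtn3 changed sign with a pseudocount of 0.1 (-1.62), a common sum (-0.82), that without haemoglobin (-0.74), quantile normalization (-0.33) and without the 3 libraries (-0.46). Ngp did so with a common sum (-0.19), quantile normalization (-1.83) and without the 3 libraries (-2.85), and Lcn2 with a common sum (-0.29) and quantile normalization (-0.13). Without the 3 libraries Camp (-1.98) and Elane (-2.05) did too. The cause was not tested.

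Leaving out 1 library gave, in the BC comparison, -0.19 to 4.56 for Camp, -0.081 to 4.31 for Ltf, -0.085 to 2.70 for Elane and -0.012 to 1.48 for Mpo. For PDAC liver it gave 0.80 to 10.68 for Ngp, 0.04 to 4.67 for Lcn2, -1.01 to 11.07 for Camp, -6.11 to 4.52 for Ltf, -2.27 to 8.08 for Elane, -0.75 to 7.32 for Mpo and -1.51 to 6.62 for Prtn3. For PDAC lung it gave -4.45 to 0.44 for Camp, -0.67 to 2.24 for Lcn2, -4.39 to 0.13 for Elane, -1.44 to 0.0060 for Mpo and -2.94 to 0.037 for Prtn3. Over both models it gave -2.02 to 1.01 for Ltf, -0.45 to 2.24 for Elane and -0.00064 to 2.02 for Mpo. Between the models it gave -4.49 to 5.39 for Ngp, -3.20 to 8.88 for Camp, -8.23 to 2.40 for Ltf, -2.19 to 2.44 for Lcn2, -3.58 to 6.77 for Elane, -1.48 to 6.59 for Mpo and -4.03 to 4.11 for Prtn3.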

Other observations

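Genes of cells that share products with neutrophils were read in the same libraries, as values without a test. The 10 mast cell and basophil genes summed to 54.9 and 550 RPKM in PDAC liver metastases 1 and 5 (69.1 RPKM in the lung metastasis), against 84.9 and 197 RPKM in PDAC primaries 1 and 5. Mcpt8, the basophil protease gene beside Ctsg, was at 33.4 and 198 RPKM in PDAC liver metastases 1 and 5, against 19.4 and 197 RPKM in PDAC primaries 1 and 5. Ctsg was listed at 0 in PDAC primary 5, where Mcpt8 was the only gene of the list above 1 RPKM. Mcpt8, Hdc, Cpa3, Fcer1a and Ms4a2 were highest in PDAC liver metastasis 5, as were the granule genes. The last 4 of these were at 267, 41.5, 23.6 and 4.79 RPKM there. The mast cell protease gene Tpsb2 was highest in PDAC primary 1, at 28.7 RPKM, as was Cma1. Tpsab1 and Mcpt4 were highest in BC primary 5, and Gata2 in the PDAC lung metastasis. Whether these cells bear on the granule gene values was not tested. The 6 eosinophil genes summed to 31.7 RPKM in PDAC liver metastasis 5 and to 442 RPKM in PDAC primary 1, where Prg2, the gene of the major basic protein of their granules, was at 293 RPKM. In BC libraries the eosinophil genes summed to 0 to 2.31 RPKM.

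Lcn2 also belongs to the acute-phase genes of the liver, and a list of 9 acute-phase protein genes was read here. Their median was 70.3 and 191 RPKM in PDAC liver metastases 1 and 5, against 0.46 and 0.0216 RPKM in PDAC primaries 1 and 5. Within the list, Saa1 and Orm2 were at only 2.10 and 0.0747 RPKM in PDAC liver metastasis 1, against 170 and 12.6 RPKM in number 5. Saa3 was at 2440 and 1845 RPKM in PDAC liver metastases 1 and 5 (658 RPKM in the lung metastasis), against 529 and 326 RPKM in PDAC primaries 1 and 5. Haptoglobin (Hp) was at 1181 and 3505 RPKM in PDAC liver metastases 1 and 5, against 197 and 0.38 RPKM in PDAC primaries 1 and 5. BC lung metastases 4 and 6 had 150 and 47.2 RPKM of Lrg1, against 6.5 and 5.89 RPKM in BC primaries 1 and 5. The median of the 9 genes was 2.60 and 0.0708 RPKM in these metastases, against 0.0788 and 0.3 RPKM in these primaries. The 12 macrophage and monocyte genes summed to 4536 and 1514 RPKM in PDAC liver metastases 1 and 5, the reverse order to the granule genes, against 545 and 132 RPKM in PDAC primaries 1 and 5.

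The summed levels of the remaining lists also differed between libraries. The 8 hepatocyte genes summed to 825 and 2154 RPKM in PDAC liver metastases 1 and 5, against 1.91 and 248 RPKM in PDAC primaries 1 and 5. The sum in PDAC primary 5 was nearly all Apoa1 (245 RPKM), and Alb was listed at 0 there. The 6 lung epithelial genes summed to 35988 RPKM in the PDAC lung metastasis, against 2.13 and 462 RPKM in PDAC primaries 1 and 5. Sftpc made up most of the first sum (34207 RPKM), although each of the 6 genes was at 29.8 RPKM or more there. The sum in PDAC primary 5 was nearly all Sftpd. The 10 erythroid genes summed to 360003 and 201183 RPKM in PDAC liver metastases 1 and 5, against 61304 and 276 RPKM in PDAC primaries 1 and 5. The 8 lymphocyte genes summed to 5770 and 9463 RPKM in PDAC liver metastases 1 and 5, against 30195 and 2.03 RPKM in PDAC primaries 1 and 5. Most of each sum was the immunoglobulin gene Igkc, at 5641, 9320, 27937 and 1.88 RPKM in that order.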
